A study of Mus musculus with 6 samples.

Results

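The guanylate-binding proteins (GBPs) were examined as 8 genes, Gbp2 to Gbp9, taken from a table of 26519 mouse genes by the Ensembl identifier of each symbol. All 8 were in the table and passed the filter on low counts, which left 12580 genes for testing. The samples were dendritic cells isolated on day 10 from tumours grown from inoculated MC38 cells, which derive from a mouse colon carcinoma. Of the 6 libraries, 3 were from MAVS knockout hosts and 3 from wild-type hosts. MAVS sits on mitochondria and passes on signals from RIG-I-like receptors, which sense RNA in the cytosol. The series title places interleukin-12 and antitumour immunity at the centre of the study. The labels give no strain, age or knockout allele, no sorting gate, and no statement that replicates came from separate mice. The p-values therefore measure the spread between these libraries, which may be technical.

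GBPs are large GTPases of the dynamin superfamily that cells make in response to interferons, above all interferon-gamma. They coat intracellular bacteria and the vacuoles of parasites, work with the smaller immunity-related GTPases (IRGs), and help to expose microbial ligands to inflammasomes. In the mouse the genes lie in a cluster on chromosome 3 (Gbp2, Gbp3, Gbp5 and Gbp7 among the 8) and another on chromosome 5 (Gbp4, Gbp6, Gbp8 and Gbp9). Macrophages and dendritic cells exposed to interferon-gamma are a known source of GBP transcripts.

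Library totals ranged from 14466640 to 18862534 counts in knockout hosts and from 17357031 to 20851733 counts in wild-type hosts. Mavs stood at 8.99, 12.8 and 9.45 CPM, the counts of a gene scaled to library size, in the knockout libraries, against 33.9, 39.7 and 39.7 CPM in the wild-type libraries, with a log2 change of -1.86 (SE 0.18, edgeR adjusted p = 0.0017). The labelled cell type was checked against 13 dendritic cell markers. Of these H2-Aa and Itgax were abundant in both groups, Xcr1 (log2 change -2.18), Flt3 (-2.01), Cd209a (-1.86) and Zbtb46 (-1.20) fell in knockout hosts, and Ccr7 (1.12) rose. The other 8 did not pass and went both ways, among them Fscn1 (1.82, at means of 3.48 CPM in knockout and 0.98 CPM in wild-type hosts), Irf4 (-0.70), Batf3 (-0.65) and Clec9a (-0.07). Mean levels of Zbtb46, Flt3, Xcr1 and Clec9a were low, at 8.75, 12.4, 7.79 and 7.15 CPM in knockout hosts. In wild-type hosts they were 20.1, 49.9, 35.1 and 7.49 CPM. Some macrophage and monocyte markers were abundant too, with Lyz2 at 19241 to 27284 CPM in knockout and 19007 to 23584 CPM in wild-type libraries. Means in knockout and wild-type hosts were 774 and 590 CPM for C1qa, 61.5 and 72.5 CPM for Adgre1, and 36.2 and 29.3 CPM for Mertk. The libraries thus hold markers of both lists, and whether these came from separate cells was not tested. In these bulk libraries, fewer cells of a type and less RNA per cell cannot be told apart.

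Of the 8 GBP genes, 3 rose in knockout hosts (Gbp2, Gbp3 and Gbp7), none fell and 5 did not pass the test. Among all tested genes 1.76% were called higher and 1.05% lower at an adjusted p below 0.05. Log2 fold changes, always of knockout over wild type, ran from 0.45 to 1.24 over the 8 members with a median of 0.88, beside a median of -0.0022 over all tested genes, of which 49.6% had a value above 0. The 3 knockout libraries lay above all 3 wild-type libraries for 6 of the 8 members, a separation that 11.2% of all tested genes showed in that direction. Gbp5 and Gbp9 were the members whose groups overlapped. The unadjusted p was below 0.05 for all 8 members, as it was with a positive fold change for 8.46% of tested genes.

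**Figure D1:**
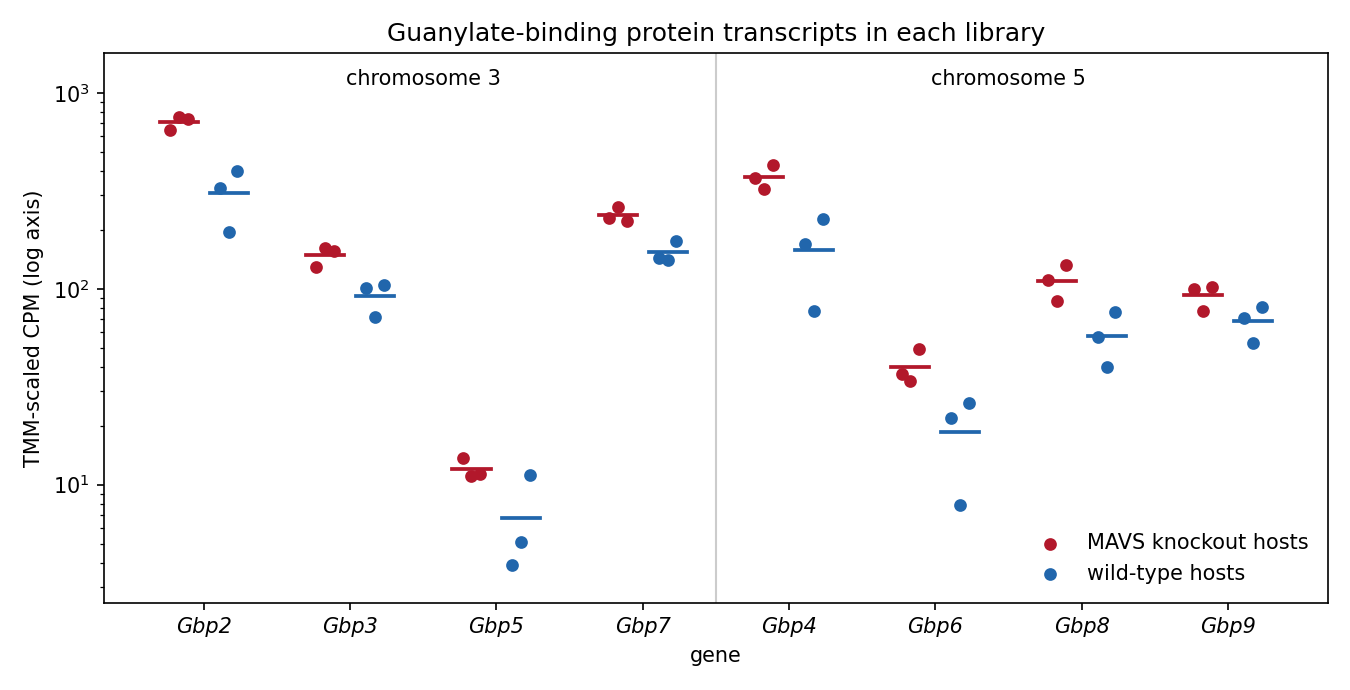
TMM-scaled CPM (log axis) of the 8 GBP genes in each library. Points are libraries (3 from MAVS knockout hosts, left; 3 from wild-type hosts, right) and horizontal lines are group means; Gbp2 has the highest level and Gbp5 the lowest in both groups, and the points of the groups overlap for Gbp5 and Gbp9.

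Because interferon-responsive elements sit close to the start of many GBP genes, promoter sequence is shown for the chromosome 3 cluster. RefSeq promoter windows (GRCm38.p6, 250 bases before to 50 after the start, all on the plus strand) were matched for 4 of the 8 members, Gbp2, Gbp3, Gbp5 and Gbp7. The window of their neighbour Gbp2b is added because its values ran the other way. The windows are Gbp2 at chr3:142620413-142620712, Gbp3 at chr3:142559794-142560093, Gbp5 at chr3:142496684-142496983, Gbp7 at chr3:142530086-142530385 and Gbp2b at chr3:142594597-142594896. Capitals mark matches, on either strand, to an interferon-stimulated response element (ISRE)-like pattern, TTTCNNTTTC or its complement GAAANNGAAA, and to a gamma-activated site (GAS)-like pattern, TTCNNNGAA.
Gbp2: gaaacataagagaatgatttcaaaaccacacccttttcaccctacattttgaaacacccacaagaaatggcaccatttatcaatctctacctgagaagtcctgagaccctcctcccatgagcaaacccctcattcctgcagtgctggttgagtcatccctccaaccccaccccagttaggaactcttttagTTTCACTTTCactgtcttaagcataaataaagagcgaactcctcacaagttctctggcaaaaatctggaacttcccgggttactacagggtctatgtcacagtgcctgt
Gbp3: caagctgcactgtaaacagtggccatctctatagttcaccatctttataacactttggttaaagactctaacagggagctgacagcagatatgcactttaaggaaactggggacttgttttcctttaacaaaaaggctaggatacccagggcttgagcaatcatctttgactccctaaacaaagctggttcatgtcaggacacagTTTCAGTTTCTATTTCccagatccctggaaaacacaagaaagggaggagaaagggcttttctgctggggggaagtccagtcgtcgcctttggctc
Gbp5: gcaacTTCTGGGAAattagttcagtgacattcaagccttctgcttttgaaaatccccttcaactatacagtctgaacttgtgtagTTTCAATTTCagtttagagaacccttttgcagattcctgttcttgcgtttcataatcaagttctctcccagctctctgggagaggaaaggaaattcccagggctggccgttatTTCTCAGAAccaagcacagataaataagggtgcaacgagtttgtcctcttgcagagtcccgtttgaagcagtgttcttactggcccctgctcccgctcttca
Gbp7: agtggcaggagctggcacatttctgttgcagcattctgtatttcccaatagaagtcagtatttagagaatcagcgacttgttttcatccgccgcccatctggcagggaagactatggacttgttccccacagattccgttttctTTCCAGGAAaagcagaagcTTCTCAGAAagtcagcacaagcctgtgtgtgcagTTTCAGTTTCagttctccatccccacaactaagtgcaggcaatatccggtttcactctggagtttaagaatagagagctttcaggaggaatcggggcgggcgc
Gbp2b: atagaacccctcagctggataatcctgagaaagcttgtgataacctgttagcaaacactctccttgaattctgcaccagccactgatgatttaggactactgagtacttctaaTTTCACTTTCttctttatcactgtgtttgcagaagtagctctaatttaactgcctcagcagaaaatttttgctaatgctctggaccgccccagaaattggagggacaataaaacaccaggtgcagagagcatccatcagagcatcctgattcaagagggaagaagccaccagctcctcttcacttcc
All 5 windows held an ISRE-like match, which 3.44% of the 32851 RefSeq windows of this length held. The match began 59 bases before the start in Gbp2, 53 in Gbp7, 165 in Gbp5 and 137 in Gbp2b, while Gbp3 had a pair of overlapping matches beginning 45 and 39 bases before the start. Gbp2 and Gbp2b shared the same 10 letters, TTTCACTTTC. GAS-like matches stood in the windows of Gbp5 and Gbp7, 2 in each, and 8.3% of all windows held at least 1. A second RefSeq start of Gbp3 had neither pattern in its window. A match is a run of letters and says nothing of binding in these cells.

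On chromosome 3, Gbp2 was the most abundant member and the one with the smallest p. Gbp2 (ENSMUSG00000028270, mm10 chromosome 3, 142620602 to 142638008), which in the mouse is recruited to the vacuole of Toxoplasma, had 649, 756 and 738 CPM in knockout hosts, against 327, 196 and 401 CPM in wild-type hosts. The lowest knockout library was 1.62 times the highest wild-type one. Group means were 714 ± 57.7 CPM in knockout and 308 ± 104 CPM in wild-type hosts (SD, n = 3 each), and the difference on the log2 scale was 1.21 (SE 0.21, 95% interval 0.74 to 1.68, edgeR adjusted p = 0.0203).

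Gbp7 (ENSMUSG00000040253, chromosome 3, 142530342 to 142550149), which has been tied in mouse macrophages to assembly of the phagocyte oxidase, had 230, 263 and 222 CPM in knockout hosts, against 144, 141 and 176 CPM in wild-type hosts. The groups did not overlap, and the spread within each was small, with a coefficient of variation of 9.02% in knockout and 12.4% in wild-type hosts. Its log2 fold change was 0.63 (SE 0.12, edgeR adjusted p = 0.0282). Gbp3 (ENSMUSG00000028268, chromosome 3, 142560026 to 142573209) had 130, 161 and 156 CPM in knockout hosts, against 101, 71.9 and 104 CPM in wild-type hosts. Its groups did not overlap either, and the log2 fold change was 0.69 (SE 0.15, edgeR adjusted p = 0.0438), close to the threshold.

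Gbp5 was the scarcest member. Gbp5 (ENSMUSG00000105504, chromosome 3, 142493978 to 142522344), which promotes assembly of the NLRP3 inflammasome in mouse macrophages, had 13.7, 11.1 and 11.3 CPM in knockout hosts, against 3.89, 5.07 and 11.2 CPM in wild-type hosts. Wild-type replicate 3 reached the level of the knockout libraries and the other wild-type libraries lay well below it. The log2 change of 0.83 (SE 0.36, 95% interval 0.04 to 1.63) did not pass (edgeR adjusted p = 0.287).

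None of the 4 members on chromosome 5 passed, although their median log2 fold change was 1.01, beside 0.76 for the 4 on chromosome 3. Whether the clusters differ was not tested. Gbp4 (ENSMUSG00000079363, chromosome 5, 105115767 to 105139586), which in mouse cells has been described as restraining the interferon regulatory factor IRF7, had 369, 322 and 428 CPM in knockout hosts, against 169, 76.9 and 228 CPM in wild-type hosts. Knockout values were all above wild-type values, with wild-type replicate 2 far below the rest, and the coefficient of variation was 14.2% in knockout and 48.1% in wild-type hosts. The log2 change of 1.24 (SE 0.30, 95% interval 0.57 to 1.91) had an edgeR adjusted p of 0.0601.

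Gbp8 (ENSMUSG00000034438, chromosome 5, 105014150 to 105139540) had 111, 86.8 and 132 CPM in knockout hosts, against 56.7, 39.8 and 75.9 CPM in wild-type hosts. The groups did not overlap and the log2 fold change was 0.93 (SE 0.22, 95% interval 0.44 to 1.43, edgeR adjusted p = 0.0563). Gbp6 (ENSMUSG00000104713, chromosome 5, 105270702 to 105293698) had 36.7, 34 and 49.1 CPM in knockout hosts, against 22, 7.85 and 26.2 CPM in wild-type hosts, with wild-type replicate 2 again far below the rest. Its log2 fold change was 1.09 (SE 0.35, 95% interval 0.32 to 1.87, edgeR adjusted p = 0.148). Gbp9 (ENSMUSG00000029298, chromosome 5, 105077630 to 105139539), which like Gbp6 has been seen at the Toxoplasma vacuole in mouse cells, had 100, 77.4 and 102 CPM in knockout hosts, against 71.3, 52.6 and 80.6 CPM in wild-type hosts. Knockout replicate 2 fell below wild-type replicate 3, and the log2 change of 0.45 (SE 0.17, 95% interval 0.07 to 0.83, edgeR adjusted p = 0.22) was the smallest of the 8.

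**Figure D2:**
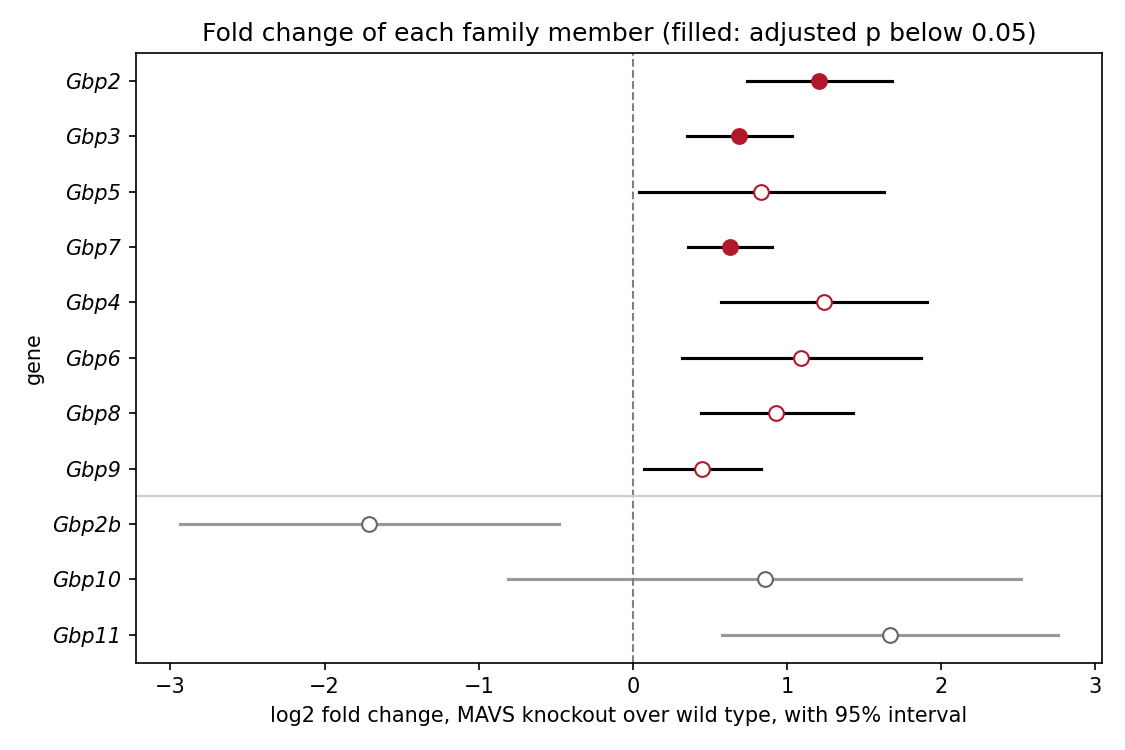
Log2 fold change (MAVS knockout over wild type) of the 8 members and of 3 other family genes, with 95% intervals of the edgeR fit from 3 libraries a group. Filled points passed at an adjusted p below 0.05: Gbp2, Gbp3 and Gbp7. The intervals of all 8 members lie above 0, and Gbp2b is the gene with a negative value.

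Each of the 3 calls was lost when certain single libraries were left out. Gbp2 kept an adjusted p below 0.05 without wild-type replicate 2 or 3 (0.0156 and 0.0111), and its adjusted p was 0.0517 without wild-type replicate 1 and 0.0564, 0.073 and 0.0989 without knockout replicates 1, 2 and 3. Gbp7 passed without wild-type replicate 3 (0.0213) and had 0.0665 to 0.118 without any other single library, and Gbp3 passed in none of the 6 such fits, at 0.0588 to 0.181. Without wild-type replicate 3, 5 members passed, namely Gbp2, Gbp4, Gbp5, Gbp7 and Gbp8. Without wild-type replicate 2, 2 passed, Gbp2 and Gbp4, and without each of the other 4 libraries none did. Calls over all genes moved as well, to 0.772% higher without wild-type replicate 1, 0.681% without wild-type replicate 2, 1.41% without wild-type replicate 3 and 0.232%, 0.297% and 0.167% without knockout replicates 1, 2 and 3. All fold changes of the 8 members stayed positive in these 6 fits. Across other settings the number of members called was 1 with library size alone (0.811% of all genes called higher), 3 with DESeq2 size factors (1.7%) and with robust dispersion (1.73%), and 4 with limma-voom (1.72%) and after thinning to the smallest library (1.83%). It was 5 when genes averaging under 5 CPM were dropped (2.67%) and with the DESeq2 Wald test (3.58%), 6 with a replicate block (2.1%) and 7 without a filter on low counts (2%).

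**Figure D3:**
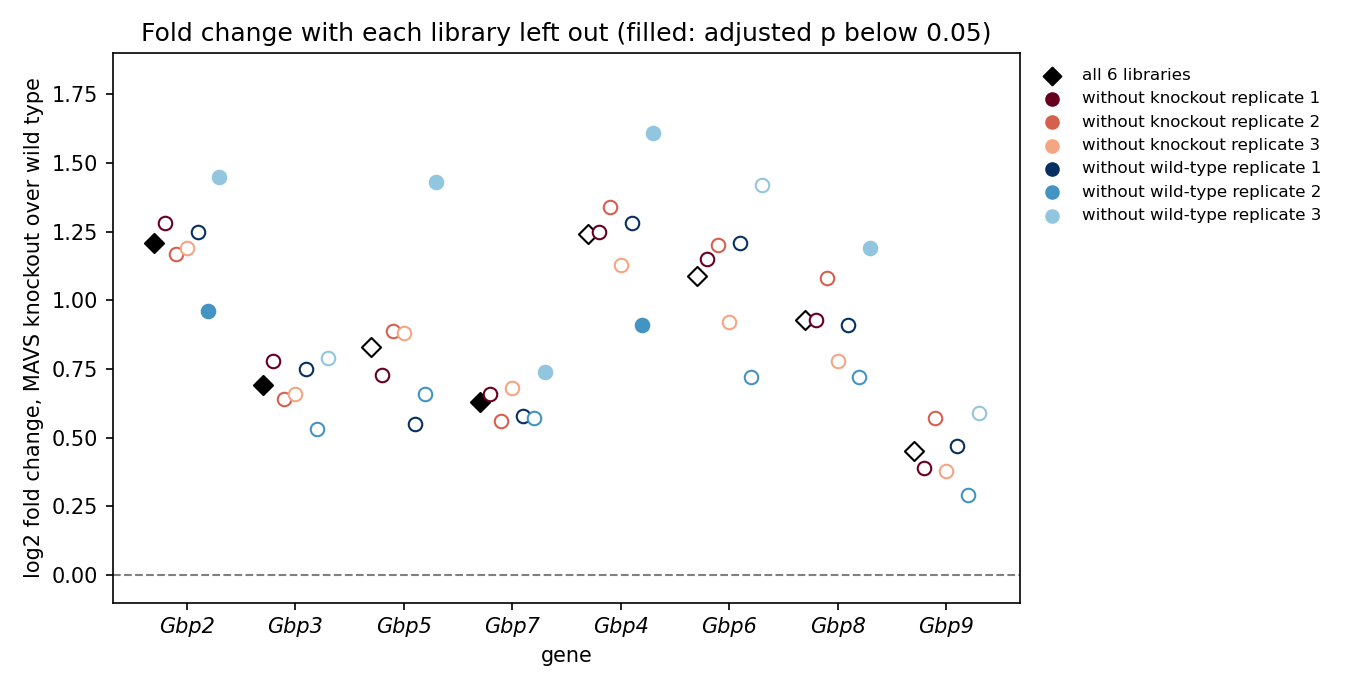
Log2 fold change (MAVS knockout over wild type) of each member with all 6 libraries (diamonds) and with each library left out in turn (circles), by edgeR. Filled symbols had an adjusted p below 0.05; leaving out wild-type replicate 3 gives the highest value for every member, and leaving out wild-type replicate 2 gives the lowest for 6 of the 8, Gbp5 and Gbp7 being the exceptions.

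Most members shared an order among the wild-type libraries, but not among the knockout libraries. The mean deviation of the 8 members from their own averages, in log2 CPM, was 0.46, 0.38 and 0.59 in knockout replicates 1, 2 and 3, against -0.43, -0.99 and -0.01 in wild-type replicates 1, 2 and 3. Among knockout libraries, replicate 2 was the highest for Gbp2 (0.72), Gbp3 (0.47) and Gbp7 (0.46). It was the lowest for Gbp5 (0.38), Gbp4 (0.48), Gbp6 (0.41), Gbp8 (0.16) and Gbp9 (-0.03). Among wild-type libraries, replicate 2 was the lowest for 7 of the 8 members (33.1% of all tested genes had their lowest wild-type value there), the exception being Gbp5, and replicate 3 was the highest for all 8. The coefficient of variation was larger in wild-type than in knockout hosts for all 8 members, as it was for 55.9% of tested genes. Within the wild-type group the highest library was 3.34 times the lowest for Gbp6, 2.96 times for Gbp4 and 2.89 times for Gbp5, but 1.24 times for Gbp7. Within the knockout group these ratios ran from 1.17 for Gbp2 to 1.52 for Gbp8.

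**Figure D4:**
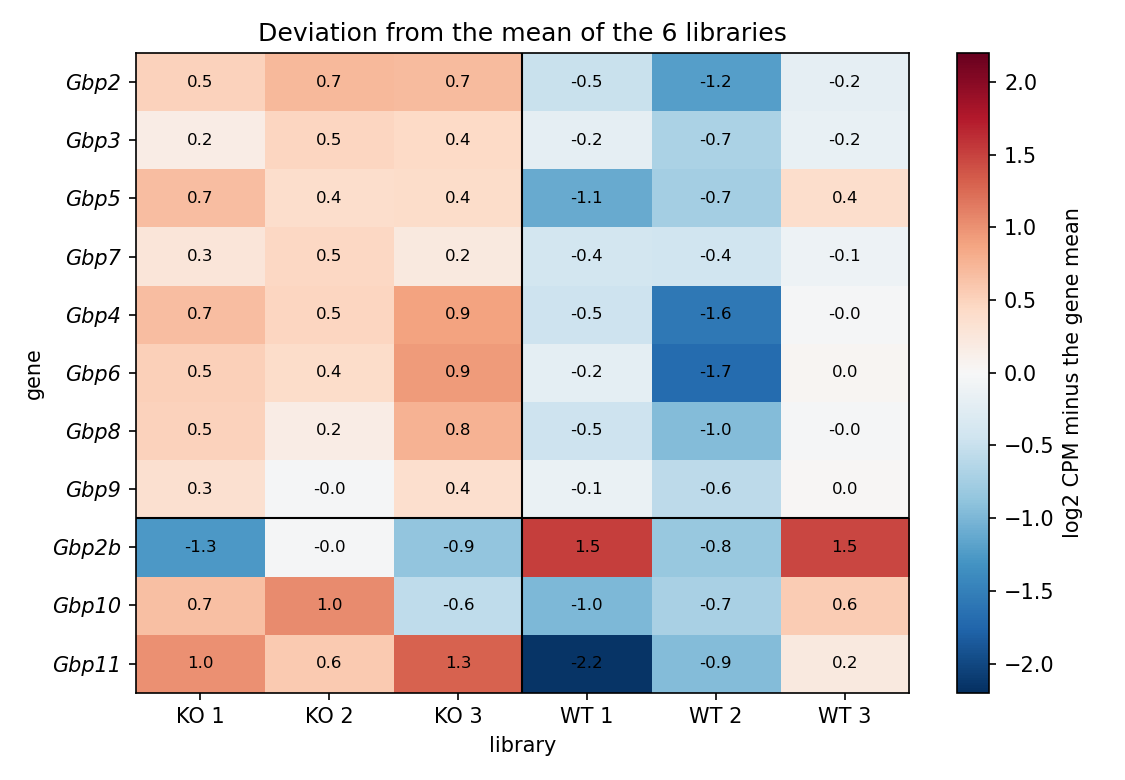
Log2 CPM of each gene in each library minus the gene's mean over the 6 libraries (knockout left, wild type right; 8 members above the line, 3 other family genes under it). Wild-type replicate 2 holds the lowest values for 7 members, and Gbp2b is high in wild-type replicates 1 and 3.

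Summed over the 8 members, GBP transcripts made up 1639, 1711 and 1839 CPM in knockout hosts, against 895, 592 and 1102 CPM in wild-type hosts. The means were 1730 ± 101 CPM in knockout and 863 ± 256 CPM in wild-type hosts (SD, n = 3 each), a ratio of 2.01. The ratio of the summed levels was 1.99 for the chromosome 3 members and 2.04 for the chromosome 5 members.

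Levels were compared between genes per kilobase of annotated exon. Gbp2 led in both groups, at 284 ± 22.9 CPM per kb in knockout and 122 ± 41.2 CPM per kb in wild-type hosts. In knockout hosts Gbp4 (49.8 ± 7.08 CPM per kb), Gbp3 (45.6 ± 5.15) and Gbp7 (42.4 ± 3.83) followed within each other's spread, then Gbp8 (31.9 ± 6.56), Gbp9 (18 ± 2.64), Gbp6 (6.71 ± 1.36) and Gbp5 (1.81 ± 0.218), all SD over n = 3. In wild-type hosts the order was the same except that Gbp3 (28.2 ± 5.42 CPM per kb) and Gbp7 (27.4 ± 3.38) stood before Gbp4 (21 ± 10.1), and these 3 again overlapped. Gbp5 was scaled by 6637 annotated exon bases and Gbp2 by 2516.

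The makeup of the GBP pool is given as a description. Gbp2 supplied 57.6%, 61.7% and 58% of the summed CPM per kb in knockout hosts, against 53.4%, 49% and 53.7% in wild-type hosts. Gbp3 supplied 9.49% ± 0.615 in knockout and 12.4% ± 1.56 in wild-type hosts, Gbp7 8.86% ± 0.927 in knockout and 12.3% ± 3.04 in wild-type hosts, and Gbp9 3.76% ± 0.638 in knockout and 5.76% ± 0.571 in wild-type hosts (SD, n = 3 each). For these 4 genes the shares of the groups did not overlap, and an exact permutation test of 3 against 3 cannot give a two-sided p below 0.1. The shares of the other 4 members overlapped. Gbp4 supplied 10.4% ± 1.35 in knockout and 8.64% ± 1.97 in wild-type hosts, and Gbp8 6.65% ± 1.29 in knockout and 7.15% ± 0.35 in wild-type hosts. Gbp6 supplied 1.39% ± 0.23 in knockout and 1.28% ± 0.389 in wild-type hosts, and Gbp5 0.381% ± 0.0701 in knockout and 0.431% ± 0.171 in wild-type hosts. The 8 shares of a library sum to the whole and are not independent of each other.

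Other family genes went both ways and none passed. Gbp11 (ENSMUSG00000092021), annotated as a polymorphic pseudogene in the chromosome 5 cluster, had 11.5, 8.45 and 14.1 CPM in knockout hosts, against 1.18, 2.88 and 6.59 CPM in wild-type hosts (log2 fold change 1.67, SE 0.49, edgeR adjusted p = 0.113). Without wild-type replicate 3 its value was 2.49 and passed (edgeR adjusted p = 0.0261, with 0.0261 to 0.332 over the 6 fits that left out a library). Gbp2b (ENSMUSG00000040264, chromosome 3, 142594847 to 142619179), next to Gbp2, had 2.25, 5.5 and 3 CPM in knockout hosts, against 16.3, 3.1 and 15.7 CPM in wild-type hosts. Wild-type replicate 2 lay among the knockout libraries, and the log2 fold change was -1.71 (SE 0.55, edgeR adjusted p = 0.152). Without that library the value was -2.17 and passed (edgeR adjusted p = 0.026, with 0.026 to 0.39 over the 6 fits that left out a library). Gbp10 was near the detection limit, with 18, 20 and 5 counts in knockout and 5, 6 and 20 counts in wild-type libraries (log2 fold change 0.86, SE 0.75, edgeR adjusted p = 0.659).

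Sequence shared with other annotated genes or gene models bears on some members. Of the 100-base stretches in annotated transcripts of Gbp6, 64.5% also occur in transcripts of another gene, most of them in the overlapping model Gm43302, so the values of Gbp6, and of Gbp10 at 73.5%, are uncertain. The share was 10% for Gbp7, 4.4% for Gbp8, 1.7% for Gbp9, 1.6% for Gbp4, 0.7% for Gbp3, 0.1% for Gbp5 and 0 for Gbp2. Most of the Gbp7 share was with the overlapping model Gm43802 (9.6%). Neither Gm43302 nor Gm43802 had a row in the count table. Gbp4, Gbp8 and Gbp9 overlap on the same strand, but 0.8% to 1.8% of their exon bases lie in exons of another gene. Counts of Gbp4, Gbp8, Gbp9 and Gbp11 added together gave 592, 495 and 676 CPM in knockout hosts, against 298, 172 and 391 CPM in wild-type hosts, a ratio of 2.05.

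Upstream of the GBPs, 1 of 21 genes of interferon receptors, kinases and transcription factors rose, none fell and 20 did not pass, with a median log2 change of 0.21. The share called higher among all tested genes, 1.76%, stands beside this count and those of the lists that follow. Batf2, a transcription factor induced by interferon-gamma, rose with 72.3, 71.5 and 97.7 CPM in knockout hosts, against 44.8, 33.5 and 52.1 CPM in wild-type hosts (log2 fold change 0.89, SE 0.18, edgeR adjusted p = 0.0338). Socs1, the feedback inhibitor of the interferon receptors, had 67, 64.3 and 68.5 CPM in knockout hosts, against 30.7, 18.2 and 45.1 CPM in wild-type hosts (1.09, SE 0.26, edgeR adjusted p = 0.054). The interferon regulatory factor Irf2 had a log2 change of 0.70 (SE 0.19, edgeR adjusted p = 0.0953) and Irf1 of 0.47 (SE 0.17, edgeR adjusted p = 0.202). The interferon-gamma receptor chains had values of -0.33 for Ifngr1 and 0.25 for Ifngr2, and the type I receptor chains of -0.02 for Ifnar1 and 0.20 for Ifnar2. Ifng itself was barely detected, with 18, 17 and 39 counts in knockout libraries, against 51, 0 and 4 counts in wild-type libraries. Its log2 change was 0.88 (SE 1.11, edgeR adjusted p = 0.785). Without wild-type replicate 3, 4 genes of this list passed, and without any other single library none did.

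Among the immunity-related GTPases, the partner family of the GBPs, all 9 tested genes had positive log2 fold changes with a median of 0.65, 1 rose and 8 did not pass. Of all tested genes, 49.6% had a value above 0 and 1.76% were called higher. Iigp1 (Irga6), which loads onto parasite vacuoles, rose with 260, 269 and 283 CPM in knockout hosts, against 99, 55.5 and 163 CPM in wild-type hosts (1.35, SE 0.29, edgeR adjusted p = 0.039). The regulatory IRGs Irgm1 and Igtp, which keep the effector IRGs off host membranes, had values of 0.65 (SE 0.19, edgeR adjusted p = 0.108) and 0.60 (SE 0.16, edgeR adjusted p = 0.074), and Ifi47 had 0.63 (SE 0.19, edgeR adjusted p = 0.124). Wild-type replicate 2 was the lowest library for Iigp1, Irgm1, Igtp and Ifi47, as for most GBPs. No IRG passed without wild-type replicate 1 or without any single knockout library.

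Of 14 genes of autophagy conjugation and ubiquitin loading, which direct GBPs and IRGs to vacuoles, Gabarap rose (0.54, SE 0.11, edgeR adjusted p = 0.0364), none fell and 13 did not pass, with a median of 0.06. Atg5 had a value of 0.37 (edgeR adjusted p = 0.168), and the ubiquitin-like proteins Gabarapl1 and Map1lc3a had 0.36 (edgeR adjusted p = 0.228) and 0.34 (edgeR adjusted p = 0.414). Of the 14, knockout libraries lay above all wild-type libraries for Gabarap, Atg5 and Gabarapl1, as they did for 11.2% of all tested genes. Of 11 inflammasome genes, Ninj1, which ruptures the plasma membrane late in lytic cell death, rose with 289, 329 and 285 CPM in knockout hosts, against 195, 174 and 198 CPM in wild-type hosts (0.67, SE 0.11, edgeR adjusted p = 0.0164), and 10 did not pass (median 0.09). Casp4, the mouse sensor of cytosolic lipopolysaccharide, had a value of 0.62 (SE 0.16, edgeR adjusted p = 0.0791), Il1b of 0.55 (SE 0.16, edgeR adjusted p = 0.102) and Il18 of -1.06 (SE 0.29, edgeR adjusted p = 0.0933). None of 7 genes of prenylation, the lipid modification that anchors some GBPs, and of GDP dissociation inhibitors passed (median 0.03), and neither did Atl2 or Atl3, atlastin GTPases related to the GBPs. With 1 library left out at a time, Gabarap passed in none of the 6 fits, and Ninj1 did not pass without knockout replicate 2 or 3.

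**Figure D5:**
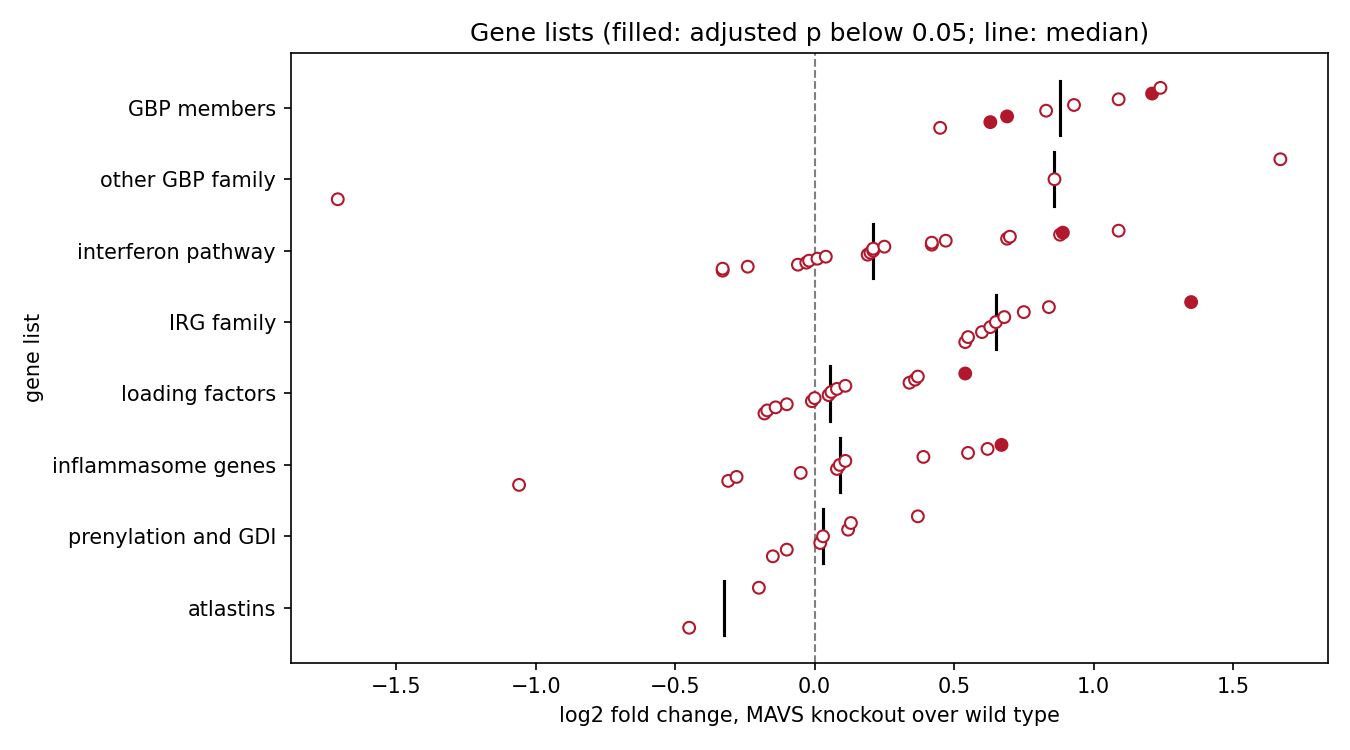
Log2 fold change (MAVS knockout over wild type) of the tested genes of each list; each point is a gene, filled at an adjusted p below 0.05 by edgeR, and lines are medians. The medians of the GBP members (0.88) and of the IRG family (0.65) lie to the right of those of the interferon pathway (0.21) and of the loading factors (0.06).

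Genes whose profile over the 6 libraries was most like the mean log2 CPM of the 8 members were ranked among 8791 protein-coding genes outside the family. The first 6 by Pearson r were Plekhn1 (0.997), Socs1 (0.997), Isca2 (0.996), Iigp1 (0.996), Itga1 (0.995) and Calhm6 (0.994). These values describe 6 libraries in 2 groups and carry no test. Itga1, an integrin chain that binds collagen, had 61.3, 53.1 and 57.8 CPM in knockout hosts, against 24.9, 14.3 and 36.4 CPM in wild-type hosts. Isca2, an iron-sulfur assembly factor, shared the profile at a far smaller amplitude, with a log2 change of 0.26 (SE 0.12).

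Markers of other cells were summed per library. B cell markers (5 of 6 in the table, 2 tested) summed to 10.2 to 12 CPM in knockout and 31.4 to 52.2 CPM in wild-type hosts. Most of this was Ighm, which fell (log2 change -1.93, edgeR adjusted p = 0.00783). The other tested marker, Cd79b, did not pass (-1.73, edgeR adjusted p = 0.0727). Ms4a1 was too low to test, with no count in knockout libraries and 9, 0 and 7 counts in wild-type replicates 1, 2 and 3. Endothelial markers (6, of which 3 tested) summed to 107 to 210 CPM in knockout and 41.1 to 88.1 CPM in wild-type hosts, carried by Flt1, which rose (log2 change 1.89, edgeR adjusted p = 0.0261), and Pecam1 (0.73, edgeR adjusted p = 0.203). The other tested marker, Kdr, had a negative value (-0.77, edgeR adjusted p = 0.425). The defining marker Cdh5 had no count in knockout and at most 0.246 CPM in wild-type libraries. T cell markers (10 of 10 tested) summed to 26.6 to 40.2 CPM in knockout and 36.4 to 55 CPM in wild-type hosts. The most abundant of them was Cd2, with means of 13.6 CPM in knockout and 25 CPM in wild-type hosts (log2 change -0.88). None of the 10 passed, and 6 had positive and 4 negative log2 changes. Natural killer markers (7 of 8 tested) summed to 26.4 to 40.4 CPM in knockout and 14 to 33.8 CPM in wild-type hosts, with the lowest sum in wild-type replicate 2. None of the 7 passed, and 4 had positive and 3 negative log2 changes. Klrd1 (-0.81) was not much lower in wild-type replicate 2 (8.86 CPM) than in wild-type replicates 1 and 3 (9.51 and 9.12 CPM). Macrophage and monocyte markers (12 of 12 tested) summed to 27807 to 35494 CPM in knockout and 26510 to 31896 CPM in wild-type hosts, mostly Lyz2. None of the 12 passed, and their median log2 change was 0.28. Knockout libraries lay above all wild-type libraries for Mrc1 (0.64), Fcgr1 (0.59), C1qa (0.39), C1qc (0.35) and C1qb (0.32), and below them for Apoe (-0.84) and Ccr2 (-0.17). Of all tested genes 11.2% lay above in this way, and the share that lay below was not counted. Neutrophil markers (6, of which 3 tested) summed to 35 CPM in each knockout library and 25.6 to 31 CPM in wild-type hosts, with S100a9 at most 0.148 CPM in any library. Tumour epithelial markers (6, of which 2 tested) had sums of 419 to 676 CPM in knockout and 363 to 541 CPM in wild-type hosts, nearly all Cdh1, with Krt8, Krt18 and Krt19 at or near 0, and fibroblast sums (6 markers, 4 tested) were 13.3 to 46.3 CPM in knockout and 17.8 to 33.7 CPM in wild-type hosts. The part of these cell types, and of the dendritic cell markers that fell or rose, in the GBP values was not tested.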

How the data were processed

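RNA-seq covered 6 samples, 3 from MAVS knockout and 3 from wild-type hosts. The authors deposited one table of unnormalized read counts by Ensembl identifier. Per the submitters' processing notes, the build was mm10, and HISAT2, HISAT, HTSeq and DESeq2 were used. Their versions and roles, the annotation release and any strand option were not given in the sources used here, so reads of overlapping or antisense genes cannot be told apart. Per the labels, Trizol was used for RNA extraction.

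Symbols, positions and exon lengths came from GENCODE M21 (mm10), which matched 26383 of 26519 identifiers. Testing used edgeR 4.0.16 (R 4.3.3). Genes were kept by filterByExpr (minimum count 10, total 15), libraries were scaled by TMM, and no covariate entered the quasi-likelihood model. Adjusted p-values are Benjamini-Hochberg values over 12580 genes, called at 0.05. CPM are TMM-scaled. The scripts were tested on simulated data. Members and lists were chosen with earlier results of these data known. The naming rule covers the family, Mavs, up to 4 genes of each list by smallest p, and the 6 genes outside the family most alike in log2 CPM (prior count 2, mean of at least 5 CPM). One gene that the rule names is not reported here. Irf1, Ifng, the interferon receptor chains and single markers were named after their values were seen. Alternatives included limma 3.58.1 (voom), DESeq2 1.42.0, other scalings and filters, a replicate block and leaving out each library. Promoters came from RefSeq. No library was a duplicate (chi-square per degree of freedom 15.9 to 38.8 within groups).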

Additional observations from a re-analysis of the deposited data

How the results depend on the processing

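All 8 GBP members kept positive log2 fold changes under every alternative run, and Mavs stayed called throughout. Depth was at least 14466640 counts a library, with 3 libraries a group. With all 6 libraries 3 members, and 222 genes higher and 132 lower, passed. With library size alone, which shifted the median of all genes to -0.17, these were 1 member (Gbp3 at 0.52 and Gbp7 at 0.46 no longer passed), 102 higher and 341 lower, with 0 interferon pathway genes, 0 loading genes and 2 inflammasome genes lower. Without a filter on low counts they were 7 members (Gbp4 1.24, Gbp6 1.09, Gbp8 0.93 and Gbp9 0.45 newly passing), 531 higher and 393 lower, 1 other family gene in each direction, 6 interferon pathway genes, 7 IRGs and 3 inflammasome genes higher with 1 lower; edgeR's prior degrees of freedom were then infinite, against 6.41 with the filter, and 26519 genes entered the fit. A mean of at least 5 CPM gave 5 members (Gbp4 1.22 and Gbp8 0.91 added) and 2 interferon pathway genes. The DESeq2 Wald test gave 5 members (Gbp6 1.09 and Gbp8 0.93 added), 433 higher and 339 lower, 1 other family gene in each direction, 4 interferon pathway genes, 4 IRGs, and 3 inflammasome genes higher with 1 lower. Limma-voom added Gbp4 (1.36) and gave 2 interferon pathway genes; thinning to the smallest library added Gbp8 (0.93) and gave 2 interferon pathway genes. The cause of these differences was not tested.

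With replicate number as a block, 6 members passed (Gbp4 1.36, Gbp6 1.22 and Gbp8 0.96 added), with 264 genes higher and 150 lower, 1 other family gene higher, 4 interferon pathway genes and 2 IRGs. The labels do not say whether replicate numbers pair the libraries. Over all tested genes, deviations of same-numbered libraries correlated at 0.038, 0.087 and -0.043. Knockout replicate 1 correlated best with wild-type replicate 3 (0.122). Such correlations, from 3 libraries a group, cannot settle whether the libraries were paired.

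With each library left out in turn, log2 fold changes ranged from 0.96 to 1.45 for Gbp2, 0.53 to 0.79 for Gbp3, 0.91 to 1.61 for Gbp4, 0.55 to 1.43 for Gbp5, 0.72 to 1.42 for Gbp6, 0.56 to 0.74 for Gbp7, 0.72 to 1.19 for Gbp8 and 0.29 to 0.59 for Gbp9. Counts passing ranged from 0 to 5 members, 22 to 181 genes higher and 9 to 96 lower, 0 to 1 other family gene in each direction, 0 to 4 interferon pathway genes, 0 to 1 IRG, 0 loading genes and 0 to 1 inflammasome gene. By plain CPM in knockout hosts Gbp7 had rank 3 and Gbp3 rank 4 among members, the reverse of their order per kb, and the same reversal came with exon bases in no other gene, a scale chosen after seeing the data.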
